A study of Mus musculus with 16 samples.

Results

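The genes described here encode the enzymes that turn citrate and acetate into saturated and monounsaturated fatty acids, together with Thrsp, a regulatory protein of the same pathway. They are the 10 genes of the deposited table whose symbol is Acly, Acss2, Me1, Acaca, Acacb, Fasn, Thrsp, Elovl6, Scd1 or Scd2, out of 20581 genes in all. They were chosen by name and not by a cut on a measured value, but with earlier results of these data known. All 10 passed the filter on low values, which asks for at least 1 CPM (counts scaled to library size) in at least 4 of the 16 libraries and which 14217 genes passed. Thrsp reached 1 CPM only in the 8 libraries of 1 medium, so it could pass only if it differed between the media. The other members reached 1 CPM in all 16 libraries.

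Total RNA was sequenced from primary smooth muscle cells of the aorta of C57BL/6J mice, all labelled male and all in 1 batch, with 4 libraries in each of 4 groups. RBC.ARG1-KO cells (KO) came from offspring of a cross between an erythropoietin receptor (EpoR) Cre line and an ARG1 flox/flox line. By its design the cross removes the arginase gene Arg1 from the red blood cell lineage and not from the smooth muscle itself, which was not tested here. RBC.ARG1-WT cells (WT) came from their littermates, and the labels do not say whether these carried a floxed allele or the Cre transgene, how old the animals were or whether aortas were pooled. For each genotype, cells stayed in Dulbecco's modified Eagle medium with 10% fetal bovine serum (DMEM) or were moved at high density for 10 days to DIAM, a lipid-loading medium made of the same base with 50 µg/mL L-ascorbic acid, 1 µM insulin and 0.1 µM dexamethasone. The labels do not say whether DIAM held serum, so the media may also differ in serum. The high density and the 10 days are given for DIAM only, so density and time in culture may differ as well. The library names run in order of medium, all DMEM libraries before all DIAM libraries. The groups are called KO DIAM, KO DMEM, WT DIAM and WT DMEM, and the libraries of each are numbered 1 to 4 as in the labels.

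Fatty acid synthesis in the cytosol starts from acetyl-CoA, made from citrate by ATP citrate lyase or from acetate by an acetyl-CoA synthetase. Acetyl-CoA carboxylase converts part of it to malonyl-CoA, and fatty acid synthase joins these units, using NADPH, into palmitate. Elongation and a first double bond then give stearate, palmitoleate and oleate. In liver and fat the genes of this pathway are induced by insulin through SREBP-1c, by glucose through ChREBP and by the oxysterol receptor LXR, and the products are stored as triglyceride.

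In GENCODE M21 (GRCm38), Acly lies at chr11:100476353-100528000 (minus strand), Acaca at chr11:84129672-84401651 (plus strand) and Fasn at chr11:120805846-120824547 (minus strand), all on chromosome 11. Scd1 at chr19:44394455-44407879 (minus strand) and Scd2 at chr19:44293674-44306864 (plus strand) lie in the same cluster on chromosome 19. Acss2 lies at chr2:155517948-155585724 (plus strand), Me1 at chr9:86581371-86695953 (minus strand), Acacb at chr5:114146535-114250761 (plus strand), Thrsp at chr7:97412938-97417730 (minus strand) and Elovl6 at chr3:129532355-129638495 (plus strand).

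The promoter windows of RefSeq (build GRCm38.p6, 250 bases before to 50 bases after each start) matched 8 of the 10 members, all except Scd1 and Scd2. They were searched on both strands for the CCAAT box (CCAAT), the GC box (GGGCGG), the TATA box (TATAAA), a sterol response element (TCACNCCAC), the E-box CACGTG and a glucocorticoid response element. The 8 members have 9 windows, Me1 having 2, so a count of members is set beside a share of windows. CCAAT was found in 6 of the 8 members (in Me1 only in its second window), beside 37.4% of all 32851 promoters in the table. GGGCGG was found in 3 of the 8 members (Acly, Acss2 and Me1), beside 35.7%. In GENCODE M21 the 140 bases before the start lie inside the gene for Acaca, Acacb, Thrsp and the second window of Me1. They lie partly inside it for Acss2, Elovl6 and the first window of Me1. TATAAA was found in Acacb alone of the 8, beside 13.6% of all promoters. The sterol element, the E-box and the glucocorticoid element, held by 1.24%, 7.15% and 0.475% of all promoters, had 0 matches to these letters in the 8 members. The bases just upstream of 3 members, picked with the values in view, are shown because their calls with DIAM differed. Fasn rose in both genotypes, Acly passed the test in KO cells only, and Elovl6 fell in both. Capitals mark CCAAT and GGGCGG on either strand. The matches are letters in a window and do not show that a factor binds there. The windows lie at chr11:120824548-120824687 (minus strand) for Fasn, chr11:100528001-100528140 (minus strand) for Acly and chr3:129532246-129532354 (plus strand) for Elovl6, each just outside the gene in the GENCODE M21 annotation of GRCm38.
Fasn: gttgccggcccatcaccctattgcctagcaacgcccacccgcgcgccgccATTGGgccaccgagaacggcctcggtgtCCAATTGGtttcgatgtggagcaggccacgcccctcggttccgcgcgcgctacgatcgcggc
Acly: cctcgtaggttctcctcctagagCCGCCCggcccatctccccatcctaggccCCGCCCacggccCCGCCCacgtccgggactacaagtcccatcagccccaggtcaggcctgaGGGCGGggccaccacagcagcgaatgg
Elovl6: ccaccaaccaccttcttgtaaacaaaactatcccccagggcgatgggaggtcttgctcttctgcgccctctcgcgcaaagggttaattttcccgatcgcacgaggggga
The Fasn window holds 3 CCAAT matches, 2 of which overlap each other, while the Acly window holds 4 GGGCGG matches and the Elovl6 window holds none of the motifs searched. Past the bases shown, Acly also has CCAAT at bases 38 to 42 after its start. Acss2 and Me1, not shown, hold GGGCGG matches too and rose with DIAM in both genotypes. Whether the motifs go with the response was not tested.

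Library totals ran between 37221192 and 47626331 estimated counts, and levels are given below as CPM after TMM scaling. The smooth muscle markers Acta2 (actin) and Tagln (transgelin) were abundant in every group, at 845 ± 227 and 411 ± 89.1 CPM in KO DIAM, 1799 ± 541 and 996 ± 259 CPM in KO DMEM, 772 ± 167 and 431.5 ± 68.6 CPM in WT DIAM and 1960 ± 247 and 1067 ± 173 CPM in WT DMEM (mean ± SD, n = 4). Of the 10 smooth muscle markers, 4 fell and 1 rose with DIAM in KO cells and 4 fell and 0 rose in WT cells (edgeR adjusted p under 0.05). Over all 14217 genes tested, 30.8% fell and 29.8% rose in KO cells, and 27.5% fell and 27.6% rose in WT cells. Markers of other cells were also present. The macrophage genes Lyz2 and Mrc1 had group means of 1039 to 1417 and 47 to 253 CPM, and the summed level of 8 such markers overlapped between all groups. Single markers did change with DIAM: 1 of the 8 rose and 3 fell in KO cells, and 3 rose and 1 fell in WT cells. Their log2 fold changes ran from -1.03 to 1.66 in KO cells and from -0.67 to 2.43 in WT cells. The 10 fibroblast markers, led by Col14a1 and Dcn, summed to 3054 to 3278 CPM in KO DIAM, 2354 to 2636 CPM in KO DMEM, 3052 to 3677 CPM in WT DIAM and 2335 to 2652 CPM in WT DMEM, while 6 of them rose and 4 fell with DIAM in each genotype. The 8 endothelial markers, among them Cdh5 and Emcn, summed to 82.6 to 132, 44.9 to 68.1, 93.6 to 132 and 42.9 to 62.6 CPM in the same order of groups. Of 10 red blood cell genes 4 were in the deposited table, and only Alas2 passed the filter, through its DIAM libraries alone. Alas2, the erythroid enzyme of heme synthesis, had 3.89 ± 2.86 CPM in KO DIAM, 0.131 ± 0.0678 CPM in KO DMEM, 1.83 ± 0.958 CPM in WT DIAM and 0.0278 ± 0.0263 CPM in WT DMEM. Klf1 and Epor, both below the filter, had 1.01 to 11 and 3.61 to 27.2 estimated counts in a library. Arg1 itself had 0 to 48.9 estimated counts in a library and was below the filter, so its loss cannot be read from these libraries. WT DIAM library 2 stood apart: it had the lowest smooth muscle marker sum, the lowest adipocyte marker sum and the highest Schwann cell marker sum of its group.

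Most of the pathway was higher in DIAM than in DMEM in both genotypes. In KO cells 8 of the 10 members rose (edgeR adjusted p under 0.05) and Elovl6 fell, where 60.7% of the 14217 genes tested changed, 29.8% rising and 30.8% falling. In WT cells 7 of the 10 rose and Elovl6 and Scd2 fell, where 55.1% of all genes changed, 27.6% rising and 27.5% falling. In KO cells the DIAM libraries lay wholly above the DMEM libraries for 8 members and wholly below for 1, where this held for 55.1% of all genes, 27.3% above and 27.8% below. In WT cells they lay wholly above for 6 members and wholly below for 2, where this held for 49% of all genes, 24.3% above and 24.7% below. These counts include Thrsp, which had to differ to pass the filter. Without it 7 of 9 members rose and 1 fell in KO cells, and 6 of 9 rose and 2 fell in WT cells. With more genes called than not in both genotypes, a call by itself says little about a member. The members together took 1.41 ± 0.181% of all counts in KO DIAM and 0.259 ± 0.0153% in KO DMEM, and 0.864 ± 0.212% in WT DIAM and 0.28 ± 0.0189% in WT DMEM (mean ± SD, n = 4). The median log2 fold change of the 10 members was 1.64 in KO cells and 0.81 in WT cells, beside medians of -0.02 and -0.01 over all genes tested, and without Thrsp it was 1.52 and 0.81. In bulk RNA a smaller share of cells of 1 type and less RNA per cell cannot be told apart, and the same holds for a larger share and more RNA per cell.

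**Figure D1:**
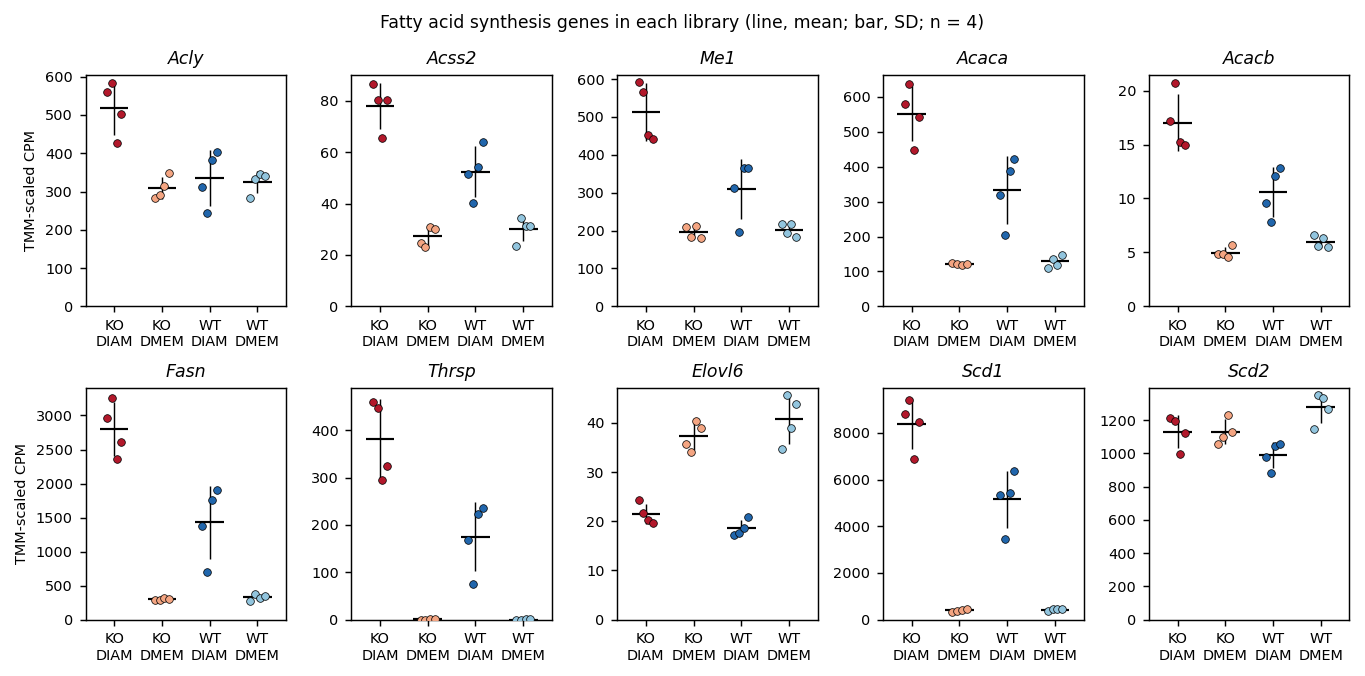
Level of each of the 10 genes in every library, in TMM-scaled CPM on a linear axis that starts at 0 (points, libraries; horizontal line, mean; vertical bar, SD; n = 4 per group). The KO DIAM libraries lie above all others for 8 genes, for Fasn between 2359 and 3257 CPM, while Elovl6 is lowest in DIAM. For Scd2 all WT DIAM libraries lie below all WT DMEM libraries, and the KO groups overlap.

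Of the 3 genes that supply carbon and reducing power, all rose in KO cells, and Acss2 and Me1 but not Acly passed the test in WT cells. Acly (ENSMUSG00000020917), ATP citrate lyase, splits citrate exported by mitochondria into acetyl-CoA and oxaloacetate. It had 560.4, 584, 428 and 502 CPM in KO DIAM libraries 1 to 4, against 284, 290.4, 315 and 349 CPM in KO DMEM. In WT DIAM it had 312, 243, 384 and 404 CPM, against 283, 332, 346 and 341 CPM in WT DMEM. All KO DIAM libraries lay above all KO DMEM libraries, while the WT groups overlapped and WT DIAM library 2 was the lowest of all 16. The log2 fold change of DIAM over DMEM was 0.74 ± 0.14 (± SE) in KO cells (edgeR adjusted p = 0.000224). In WT cells it was 0.05 ± 0.14 (edgeR adjusted p = 0.799), with a 95% interval of -0.25 to 0.34.

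Acss2 (ENSMUSG00000027605), the cytosolic and nuclear synthetase that makes acetyl-CoA from acetate, was rarer, also per transcript length. Its levels were 86.3, 80.4, 65.4 and 80.2 CPM in KO DIAM, against 24.8, 23.2, 30.7 and 30.2 CPM in KO DMEM. In WT DIAM they were 51.5, 40.1, 54.2 and 63.9 CPM, against 23.3, 34.3, 31.2 and 31.1 CPM in WT DMEM. Neither pair of groups overlapped. Acss2 was 2.86-fold higher with DIAM in KO cells (log2 fold change 1.52 ± 0.15, edgeR adjusted p = 2.78e-07) and 1.75-fold higher in WT cells (0.81 ± 0.14, edgeR adjusted p = 0.000216).

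Me1 (ENSMUSG00000032418), the cytosolic malic enzyme, makes NADPH while turning malate into pyruvate. In KO DIAM it had 591, 567, 453 and 442 CPM, against 208, 182, 212 and 179.9 CPM in KO DMEM. WT DIAM gave 312, 196, 365 and 366 CPM, against 218, 193, 216 and 182 CPM in WT DMEM. The KO groups were far apart, whereas WT DIAM library 2 fell inside the WT DMEM range. Its log2 fold change was 1.39 ± 0.16 in KO cells (edgeR adjusted p = 2.38e-06) and 0.61 ± 0.16 in WT cells (edgeR adjusted p = 0.0043), the smallest rise that passed in WT cells.

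Both acetyl-CoA carboxylases rose. Acaca (ENSMUSG00000020532), the cytosolic form whose malonyl-CoA feeds synthesis, had 579.6, 637, 448 and 543 CPM in KO DIAM, against 124, 122, 118 and 121 CPM in KO DMEM. It had 318, 204, 389 and 422 CPM in WT DIAM, against 111, 137, 118 and 148 CPM in WT DMEM. No DIAM library fell into the DMEM range, and the KO DMEM libraries lay close together. The rise was 4.56-fold in KO cells (log2 fold change 2.19 ± 0.18, edgeR adjusted p = 5.1e-08) and 2.59-fold in WT cells (1.37 ± 0.17, edgeR adjusted p = 8.29e-06).

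Acacb (ENSMUSG00000042010), the form at the outer mitochondrial membrane whose malonyl-CoA restrains fatty acid uptake into mitochondria, was far scarcer, also per transcript length. It had 17.2, 20.7, 15.2 and 14.9 CPM in KO DIAM, against 4.82, 4.89, 4.57 and 5.7 CPM in KO DMEM. In WT DIAM it had 9.6, 7.86, 12.1 and 12.9 CPM, against 6.57, 5.58, 6.35 and 5.49 CPM in WT DMEM. The groups did not overlap in either genotype. Its log2 fold change was 1.77 ± 0.15 in KO cells (edgeR adjusted p = 4.22e-08) and 0.82 ± 0.15 in WT cells (edgeR adjusted p = 0.00018). The counts of Acaca were 29.4 to 36.3 times those of Acacb in KO DIAM and 21.2 to 25.8 times in KO DMEM, and 26 to 33.1 times in WT DIAM and 16.9 to 26.9 times in WT DMEM. These ratios were chosen after their values were seen, compare counts not divided by transcript length, and carry no test.

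Fasn (ENSMUSG00000025153), fatty acid synthase, is the multi-domain enzyme that builds palmitate. It had 2968, 3257, 2359 and 2618 CPM in KO DIAM, against 287, 292, 325 and 298 CPM in KO DMEM. It had 1371, 705, 1751 and 1911 CPM in WT DIAM, against 281, 375, 320.0 and 346 CPM in WT DMEM. The lowest DIAM value, that of WT library 2, was still above the highest DMEM value, and the WT DIAM libraries spread more than those of any other group. Fasn was 9.31-fold higher with DIAM in KO cells (log2 fold change 3.22 ± 0.24, edgeR adjusted p = 1.58e-08) and 4.34-fold higher in WT cells (2.12 ± 0.23, edgeR adjusted p = 1.29e-06).

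Thrsp (ENSMUSG00000035686), also called Spot 14, is a thyroid hormone-responsive nuclear and cytosolic protein of lipogenic tissues and is not itself an enzyme. It had 460.4, 447, 294 and 325 CPM in KO DIAM, against 0.288, 0.103, 0.659 and 0.79 CPM in KO DMEM. WT DIAM gave 168, 74.4, 223 and 237 CPM, against 0.232, 0.336, 0.529 and 0.396 CPM in WT DMEM. The DMEM values rest on 3.99 to 33.4 estimated counts in a library, against 3140 to 18404 in DIAM. The fitted log2 fold change was 9.66 ± 0.48 in KO cells (edgeR adjusted p = 3.56e-10) and 8.85 ± 0.48 in WT cells (edgeR adjusted p = 1.1e-09), and its size depends on how precisely the few DMEM counts are known. Because Thrsp passed the filter through its DIAM libraries alone, its call adds nothing to the count of members.

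Elovl6 (ENSMUSG00000041220), the elongase that carries palmitate to stearate, went the other way. It had 24.3, 21.6, 20.2 and 19.6 CPM in KO DIAM, against 35.8, 34.1, 40.4 and 38.9 CPM in KO DMEM. It had 17.3, 17.6, 18.6 and 20.9 CPM in WT DIAM, against 34.6, 45.6, 38.9 and 43.7 CPM in WT DMEM. Every DIAM library lay below every DMEM library. The log2 fold change was -0.80 ± 0.09 in KO cells (edgeR adjusted p = 2.03e-06) and -1.13 ± 0.09 in WT cells (edgeR adjusted p = 4.98e-08). For each Fasn count there were 0.00664 to 0.00858 Elovl6 counts in KO DIAM and 0.117 to 0.131 in KO DMEM, and 0.0106 to 0.0249 in WT DIAM and 0.122 to 0.126 in WT DMEM, again a ratio chosen after its values were seen and not tested.

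The stearoyl-CoA desaturases place the double bond that gives palmitoleate and oleate, and the pair differed. Scd1 (ENSMUSG00000037071), the form best known from liver and fat, had 8802, 9409.6, 6883 and 8463 CPM in KO DIAM, against 342, 370.0, 403 and 459 CPM in KO DMEM. It had 5348, 3449, 5406 and 6380.4 CPM in WT DIAM, against 390.4, 453, 441 and 446 CPM in WT DMEM. Each DIAM library was far above each DMEM library. The rise was 21.3-fold in KO cells (log2 fold change 4.41 ± 0.17, edgeR adjusted p = 6.87e-12) and 11.9-fold in WT cells (3.57 ± 0.17, edgeR adjusted p = 5.38e-11).

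Scd2 (ENSMUSG00000025203), the form prominent in brain and in many cultured cells, had 1209.6, 1195, 995 and 1123 CPM in KO DIAM, against 1058, 1099, 1233 and 1131 CPM in KO DMEM. In WT DIAM it had 979, 884, 1045 and 1053 CPM, against 1146, 1353, 1335 and 1267 CPM in WT DMEM. The KO groups overlapped throughout, while all WT DIAM libraries lay below all WT DMEM libraries. In KO cells its log2 fold change was 0.00 ± 0.08 (edgeR adjusted p = 0.997), with a 95% interval of -0.17 to 0.17. In WT cells it fell by 0.37 ± 0.08 on the log2 scale (edgeR adjusted p = 0.000977). Scd1 made up 88.1 ± 0.577% of the summed Scd1 and Scd2 counts in KO DIAM and 25.8 ± 2.09% in KO DMEM, and 83.4 ± 2.69% in WT DIAM and 25.3 ± 0.519% in WT DMEM (mean ± SD, n = 4). This share was also chosen after its values were seen. Scd1 and Scd2 are close paralogs of the same chromosome 19 cluster, and how the authors' counting split reads between them was not tested, so values that set one against the other are uncertain.

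Levels can be set side by side between members only per transcript length, here as CPM per kilobase of the longest principal transcript in GENCODE M21. In KO DIAM Scd1 led with 1736 ± 223 CPM per kilobase, followed by Thrsp at 299 ± 66.1 and Fasn at 279 ± 39.2, whose ranges overlapped. Below them and clear of each other came Scd2 at 207 ± 18, Me1 at 156 ± 23.4, Acly at 118 ± 15.9, Acaca at 58 ± 8.37, Acss2 at 26.6 ± 3.04, Elovl6 at 3.6 ± 0.348 and Acacb at 1.94 ± 0.301 CPM per kilobase. In KO DMEM the order began with Scd2 at 207 ± 13.7, Scd1 at 81.4 ± 10.4 and Acly at 70.5 ± 6.69 CPM per kilobase, the last pair overlapping. Thrsp was at the end there, at 0.36 ± 0.25 CPM per kilobase, overlapping Acacb at 0.568 ± 0.0558. In WT DIAM Scd1 at 1065 ± 254 CPM per kilobase was followed by Scd2 at 182 ± 14.4, Fasn at 143 ± 53.4, Thrsp at 137 ± 57.6, Me1 at 94.1 ± 24.3 and Acly at 76.5 ± 16.7, each overlapping the next from Scd2 on down to Acly. Acaca at 35 ± 10.1 and Acss2 at 17.9 ± 3.34 CPM per kilobase also overlapped each other there, ahead of Elovl6 at 3.12 ± 0.274 and Acacb at 1.21 ± 0.262. WT DMEM had Scd2 at 234 ± 17.2, Scd1 at 89.5 ± 5.9, Acly at 74.1 ± 6.6, Me1 at 61.6 ± 5.37 and Fasn at 32.9 ± 4 CPM per kilobase at the head, with only Acly and Me1 overlapping among these. Fasn thus lay below Acly and Me1 in both DMEM groups, and its mean lay above theirs in both DIAM groups.

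**Figure D2:**
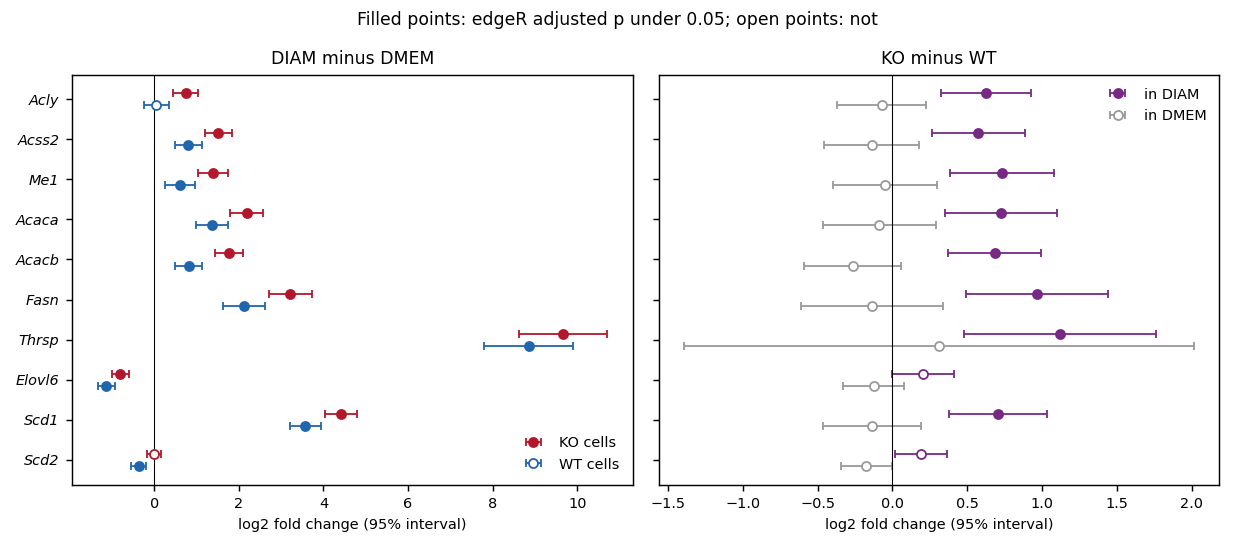
Log2 fold changes of the 10 genes with 95% intervals, DIAM over DMEM on the left (KO above WT for each gene) and KO over WT on the right (in DIAM above in DMEM). Filled points passed the edgeR test at an adjusted p under 0.05: Thrsp, Scd1 and Fasn have the largest fitted rises with DIAM, Elovl6 falls, and 8 genes are higher in KO than in WT cells in DIAM and none in DMEM.

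The comparison of genotypes asks whether cells from RBC.ARG1-KO mice differ from littermate cells. In DIAM 8 of the 10 members were higher in KO than in WT cells (edgeR adjusted p under 0.05) and none was lower, where 8.38% of the 14217 genes tested differed, 3.43% higher and 4.95% lower. For the same 8 members every KO DIAM library lay above every WT DIAM library, which held for 7.38% of all genes tested. The groups were apart in either direction for 16.4% of all genes, 9.05% being lower in KO cells. By the values given above, the lowest Fasn level in KO DIAM was 2359 CPM and the highest in WT DIAM was 1911 CPM. Fasn was 1.95-fold higher in KO cells (log2 fold change 0.97 ± 0.22, edgeR adjusted p = 0.0197). The carboxylases differed by 0.73 ± 0.17 for Acaca (edgeR adjusted p = 0.0228) and 0.68 ± 0.14 for Acacb (edgeR adjusted p = 0.0151) on the log2 scale. Among the supply genes the log2 fold change was 0.63 ± 0.14 for Acly (edgeR adjusted p = 0.017), 0.58 ± 0.14 for Acss2 (edgeR adjusted p = 0.0269) and 0.73 ± 0.16 for Me1 (edgeR adjusted p = 0.0173). Scd1 was 1.63-fold higher in KO cells (log2 fold change 0.71 ± 0.15, edgeR adjusted p = 0.0156), and Thrsp 2.18-fold (1.12 ± 0.29, edgeR adjusted p = 0.0344).

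The 2 members left in DIAM were those that had not risen with DIAM in either genotype. Scd2 had a log2 fold change of 0.19 ± 0.08 between KO and WT cells (edgeR adjusted p = 0.14), with a 95% interval of 0.02 to 0.36 before any adjustment. Elovl6 had one of 0.21 ± 0.10 (edgeR adjusted p = 0.184), with an interval of -0.00 to 0.41. For both the KO DIAM and WT DIAM ranges overlapped. The median log2 fold change of the 10 members was 0.69, beside 0.00 over all genes tested.

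In edgeR these genotype calls lay close to the threshold. With only the KO DIAM and WT DIAM libraries in the fit, 0 of the 10 members passed, with edgeR adjusted p-values of 0.0696 to 0.0913 for the same 8 and nearly the same fold changes. Leaving out KO DIAM library 1 left 2 of the 8 calls, leaving out KO DIAM library 2 left 0, leaving out WT DIAM library 1 left 1 and leaving out WT DIAM library 2 left 7, Acss2 being lost. The log2 fold changes of the 8 stayed above 0 in all of these, and that of Fasn without WT DIAM library 2 was 0.74. Thrsp also missed the threshold without the filter on low counts (edgeR adjusted p = 0.0573) and in DESeq2 (adjusted p = 0.0811). DESeq2 called the other 7, with DESeq2 adjusted p-values from 0.000161 for Scd1 to 0.00249 for Acss2. The authors' deposited table called all 8, with their adjusted p-values running from 0.00147 for Scd1 to 0.0363 for Thrsp.

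Within WT DIAM, library 2 had the lowest value of 9 of the 10 members and library 4 the highest of all 10. Within KO DIAM, library 3 had the lowest value of 7 members, and libraries 1 and 2 the highest of 5 each. Adipocyte markers largely followed this order. The summed CPM of the 8 adipocyte markers above the filter was 1871, 1814, 1312 and 1733 in KO DIAM libraries 1 to 4 and 1127, 682, 1237 and 1266 in WT DIAM, against 17 to 31.1 in KO DMEM and 19.5 to 28.5 in WT DMEM. All 8 of these markers rose with DIAM in both genotypes, where 29.8% of all genes rose in KO cells and 27.6% in WT cells. Cidec and Retn passed the filter only through DIAM libraries, and without them 6 of 6 rose. In DIAM 4 of the 8 (Plin1, Lipe, Adrb3 and Car3) were higher in KO than in WT cells, beside 3.43% of all genes. As for the members, this depends on the fit: with only the KO DIAM and WT DIAM libraries in it 0 of all genes passed. The 2 most abundant of the 8 markers were Cfd (complement factor D), at 379 ± 54.7 CPM in KO DIAM and 300.4 ± 61.5 CPM in WT DIAM, and Car3 (carbonic anhydrase 3), at 298 ± 55.2 and 154 ± 37.5 CPM in the same groups. None of the 8 was at 0 in all libraries of a group.

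Schwann cell markers ran in the opposite order to the summed members in WT DIAM, and not fully so in KO DIAM. The summed CPM of the 10 markers was 51, 117, 174 and 209 in KO DIAM libraries 1 to 4 and 516, 777, 334 and 324 in WT DIAM, against 29.7 to 135 in KO DMEM and 30.8 to 94.2 in WT DMEM. Of the 9 tested, 0 differed between genotypes in DIAM, where 8.38% of all genes did. Still, 8 had a log2 fold change below 0 and the median was -1.92. Ngfr (the p75 neurotrophin receptor) had 55.7 ± 34.7 CPM in KO DIAM and 239 ± 110 CPM in WT DIAM, and Cdh19 (a cadherin) 14 ± 8.36 and 57.8 ± 28 CPM in the same groups. The summed CPM of the 10 smooth muscle markers was 1331 to 2304 in KO DIAM and 1172 to 1904 in WT DIAM. Of the 10, 0 differed between genotypes in DIAM, beside the same 8.38% of all genes. The part that these other cells, or the make-up of single libraries, have in the genotype differences of the fatty acid synthesis genes was not tested.

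**Figure D3:**
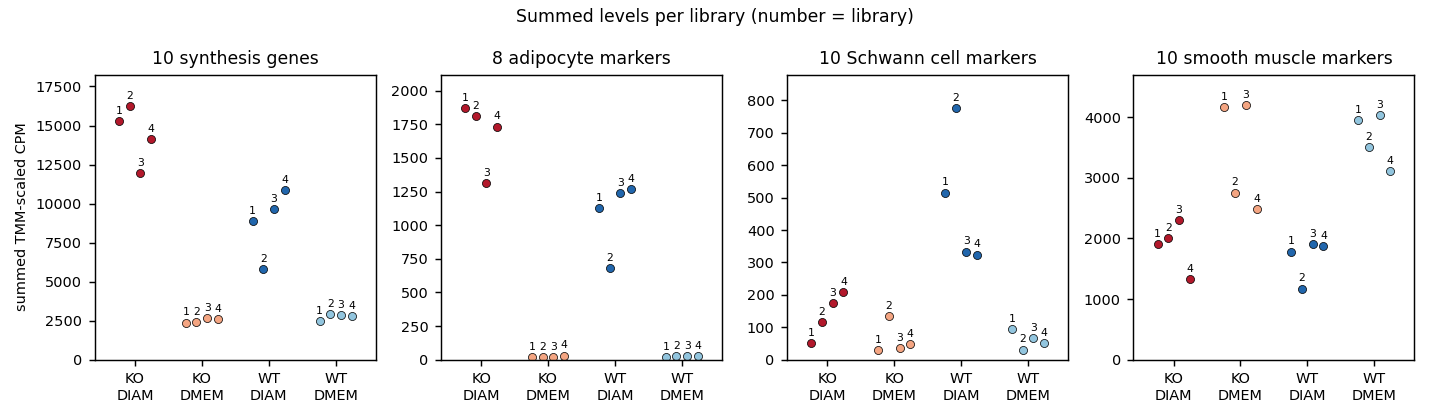
Summed TMM-scaled CPM per library of the 10 fatty acid synthesis genes, 8 adipocyte markers, 10 Schwann cell markers and 10 smooth muscle markers (points, libraries; numbers, library within the group; linear axes from 0). WT DIAM library 2 has the lowest sum of synthesis genes (5821) and of adipocyte markers (682) and the highest of Schwann cell markers (777) among the 4 WT DIAM libraries.

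In DMEM, 0 of the 10 members differed between KO and WT cells in edgeR (adjusted p = 0.999842 for each), as did 0% of all genes tested, while 438 genes had an unadjusted p under 0.05. All 10 KO DMEM and WT DMEM ranges overlapped, where the ranges of 1.6% of all genes did not, 0.774% being higher and 0.823% lower in KO cells. The log2 fold change of 9 of the 10 was below 0, between -0.27 ± 0.15 for Acacb and -0.05 ± 0.16 for Me1. That of Thrsp was 0.31 ± 0.78. For Fasn the difference was -0.14 ± 0.22, with a 95% interval of -0.61 to 0.34, and for Acly -0.07 ± 0.14, with an interval of -0.37 to 0.23. DESeq2 and the authors' deposited table also called 0 of the 10 members there.

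The interaction term tests whether the log2 fold change with DIAM differed between KO and WT cells. A value above 0 means a larger rise or a smaller fall in KO cells. In edgeR 0 of the 10 members passed, as did 0% of all genes tested, although 2255 genes had an unadjusted p under 0.05. The term was above 0 for all 10 members, with a median of 0.79 on the log2 scale beside 0.00 over all genes tested. It was 1.10 ± 0.31 for Fasn (edgeR adjusted p = 0.179), 0.95 ± 0.21 for Acacb (edgeR adjusted p = 0.171), 0.84 ± 0.21 for Scd1 (edgeR adjusted p = 0.176) and 0.82 ± 0.24 for Acaca (edgeR adjusted p = 0.181). Acacb ranked 24 among the 14217 genes by its p. The term for Thrsp was 0.81 ± 0.85 (edgeR adjusted p = 0.677). For Elovl6 (0.33 ± 0.13) it stands for a smaller fall in KO cells, -0.80 against -1.13 in WT cells. For Scd2 (0.37 ± 0.11) it stands for 0.00 in KO cells against -0.37 in WT cells. The call depends on the tool: DESeq2 on the same counts called 7 members (Fasn, Acaca, Acacb, Acly, Acss2, Me1 and Scd1) among 225 genes. The authors' deposited table calls the same 7 among 234 genes, with adjusted p-values between 0.00831 for Acacb and 0.0424 for Acaca. Because the term shares its DIAM and DMEM libraries with the comparisons above, it is not separate evidence.

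The genes around these enzymes were taken as lists drawn up by role, with earlier results of these data known. Of 14 genes of precursor and NADPH supply, 12 rose and 0 fell with DIAM in KO cells, and 10 rose and 2 fell in WT cells. Beside this list and those below, 29.8% of all genes tested rose and 30.8% fell in KO cells. In WT cells 27.6% rose and 27.5% fell. Slc25a10, the mitochondrial dicarboxylate carrier, had 89.8 ± 9.74 CPM in KO DIAM and 16.4 ± 0.58 CPM in KO DMEM (log2 fold change 2.45, edgeR adjusted p = 6.96e-11), and 62 ± 11.7 CPM in WT DIAM and 16.8 ± 1.15 CPM in WT DMEM (1.88, edgeR adjusted p = 1.38e-09). Mdh1, the cytosolic malate dehydrogenase that feeds malic enzyme, had log2 fold changes of 1.30 in KO cells and 0.82 in WT cells (edgeR adjusted p = 4.21e-10 and 1.03e-07). G6pdx, which opens the NADPH-making pentose phosphate pathway, had 222 ± 11.5 CPM in KO DIAM and 79 ± 6.33 CPM in KO DMEM, and 161 ± 26.3 CPM in WT DIAM and 81.7 ± 3.72 CPM in WT DMEM. Its log2 fold changes were 1.49 and 0.98 (edgeR adjusted p = 1.98e-09 and 2.96e-07). Slc25a1, the citrate carrier that exports the substrate of Acly, had a log2 fold change of 0.17 in KO cells (edgeR adjusted p = 0.0236) and -0.21 in WT cells (edgeR adjusted p = 0.007). Between genotypes in DIAM 10 of the 14 were higher in KO cells and 0 lower, where 3.43% of all genes were higher and 4.95% lower, with Slc25a1 at 0.31 ± 0.06 (edgeR adjusted p = 0.012) and G6pdx at 0.46 ± 0.09 (edgeR adjusted p = 0.0139). As for the members, these genotype calls depend on the fit: with only the KO DIAM and WT DIAM libraries in it 0 of all 14217 genes passed, and without KO DIAM library 2 only 178 did, so the same limit holds for each list below.

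Cofactors and partners of the enzymes moved in both directions. Of 11 tested, 8 rose and 3 fell in KO cells and 7 rose and 3 fell in WT cells. Acss3, among those that rose, passed the filter only through its DIAM libraries, and without it 7 of 10 rose in KO cells and 6 of 10 in WT cells. Acss3, a mitochondrial acyl-CoA synthetase of short chains, had 107 ± 13 CPM in KO DIAM and 0.589 ± 0.0894 CPM in KO DMEM, and 66.1 ± 17.4 CPM in WT DIAM and 0.436 ± 0.193 CPM in WT DMEM. Fabp5, a fatty acid binding protein, had log2 fold changes of 1.17 and 1.14 in KO and WT cells (edgeR adjusted p = 6.01e-10 and 9.54e-10). Mid1ip1, the partner and relative of Thrsp that activates acetyl-CoA carboxylase, had 54.6 ± 5.32 CPM in KO DIAM and 43.4 ± 2.83 CPM in KO DMEM, and 56.4 ± 3.88 CPM in WT DIAM and 45.1 ± 2.26 CPM in WT DMEM. Its log2 fold changes of 0.33 and 0.32 passed the test (edgeR adjusted p = 0.000843 and 0.00128), beside 9.66 and 8.85 for Thrsp. In DIAM 1 of the 11, Acss3, was higher in KO cells (0.70 ± 0.17, edgeR adjusted p = 0.0239), and 1, Acbd3, was lower. Over all genes tested 3.43% were higher there and 4.95% lower.

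Among fatty acid enzymes outside the 10, some rose and some fell. Of 14 other desaturases, elongases and elongation-cycle genes, 6 rose and 4 fell in KO cells and 5 rose and 4 fell in WT cells, with medians of 0.04 and -0.05. The 10 of 14 called in KO cells stand beside 60.7% of all genes. Scd4, among those that rose, passed the filter only through its DIAM libraries. Fads1 and Fads2, the desaturases of polyunsaturated fatty acids, fell: Fads2 had 70 ± 13.7 CPM in KO DIAM and 159 ± 17 CPM in KO DMEM, and 65.6 ± 3.86 CPM in WT DIAM and 157 ± 13.3 CPM in WT DMEM. Its log2 fold changes were -1.19 and -1.26 (edgeR adjusted p = 2.47e-07 and 1.58e-07), and those of Fads1 were -0.81 and -0.83 (edgeR adjusted p = 3.83e-09 and 3.52e-09). Elovl6 fell as they did, while Fasn and Scd1 rose. Of 9 genes of mitochondrial fatty acid synthesis, a separate pathway that serves lipoic acid, 6 rose in KO cells and 4 in WT cells, and 0 fell. Mecr, its enoyl reductase, had log2 fold changes of 0.84 and 0.58 (edgeR adjusted p = 7.91e-06 and 0.000364), and Acsf3, its malonyl-CoA synthetase, 0.65 and 0.42 (edgeR adjusted p = 6.98e-05 and 0.00351).

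Of 23 regulators, 12 rose and 6 fell in KO cells and 6 rose and 6 fell in WT cells. In KO cells 5 of the 23 were not called and in WT cells 11, where 60.7% and 55.1% of all genes were called. Srebf1, which encodes SREBP-1, had 213 ± 23.4 CPM in KO DIAM and 106 ± 7.46 CPM in KO DMEM, and 178 ± 19.3 CPM in WT DIAM and 107 ± 2.75 CPM in WT DMEM. Its log2 fold changes were 1.01 ± 0.08 and 0.73 ± 0.08 (edgeR adjusted p = 4.09e-08 and 2e-06), and the counts do not separate its SREBP-1a and SREBP-1c transcripts. Mlxipl, which encodes ChREBP, had 19.1 ± 3.53 CPM in KO DIAM and 0.33 ± 0.122 CPM in KO DMEM, and 12.1 ± 3.98 CPM in WT DIAM and 0.325 ± 0.226 CPM in WT DMEM. It passed the filter only through its DIAM libraries. Without Mlxipl 11 of 22 regulators rose in KO cells and 5 of 22 in WT cells. Nr1h3, which encodes LXR alpha, had log2 fold changes of 2.14 ± 0.09 and 2.07 ± 0.09 (edgeR adjusted p = 1.65e-11 and 2.96e-11). Insig1, the sterol-regulated protein that retains SREBPs in the endoplasmic reticulum and is itself an SREBP target, fell by 1.12 and 1.13 on the log2 scale (edgeR adjusted p = 8.73e-08 and 9.43e-08). Between KO and WT cells in DIAM, Srebf1 had 0.25 ± 0.08 (edgeR adjusted p = 0.0711), Mlxipl 0.66 ± 0.26 (edgeR adjusted p = 0.123), Nr1h3 0.10 ± 0.08 (edgeR adjusted p = 0.487) and Insig1 -0.10 ± 0.10 (edgeR adjusted p = 0.574). Of the 23, Rxra (a partner of nuclear receptors) was higher in KO cells there, with 0.27 ± 0.07 (edgeR adjusted p = 0.0367), and Trib3 (a pseudokinase) lower, with -0.52 ± 0.15 (edgeR adjusted p = 0.0409). This pair was picked with the values in view, and over all genes tested 3.43% were higher and 4.95% lower there.

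The neighbouring lipid pathways served for comparison. Of 19 cholesterol synthesis genes, 17 fell with DIAM in each genotype, with 2 rising in KO cells and 0 in WT cells and medians of -1.04 and -1.12. Fdps, farnesyl diphosphate synthase, had 60.6 ± 1.67 CPM in KO DIAM and 172 ± 20.2 CPM in KO DMEM, and 65.8 ± 2.5 CPM in WT DIAM and 188 ± 15.7 CPM in WT DMEM. Between genotypes in DIAM 0 of the 19 differed, where only 8.38% of all genes did. Of 14 triglyceride assembly genes above the filter, 10 rose and 1 fell in KO cells, 9 rose and 2 fell in WT cells, and 5 (Gpam, Agpat2, Lpin1, Dgat1 and Dgat2) were higher and 0 lower in KO than in WT cells in DIAM, beside the 3.43% of all genes that were higher and within the limit of the fit given above. Agpat2, which acylates lysophosphatidic acid, had log2 fold changes of 2.92 and 2.26 with DIAM (edgeR adjusted p = 1.35e-10 and 2.11e-09) and of 0.62 ± 0.13 between KO and WT cells in DIAM (edgeR adjusted p = 0.0159). How far the lists differ from one another was not tested.

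**Figure D4:**
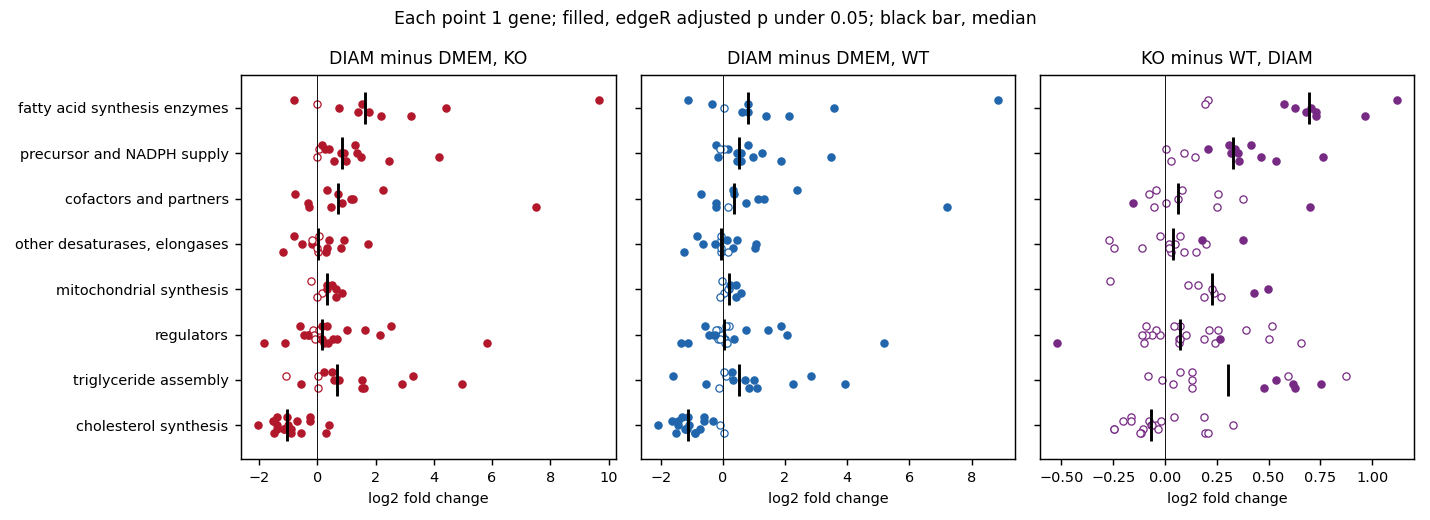
Log2 fold changes of every tested gene in 8 lists (1 point per gene; filled, edgeR adjusted p under 0.05; black bar, list median), for DIAM over DMEM in KO cells, DIAM over DMEM in WT cells and KO over WT cells in DIAM. The synthesis genes have medians of 1.64, 0.81 and 0.69, while the cholesterol synthesis genes have medians of -1.04, -1.12 and -0.07.

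The genes with the pattern most like that of Fasn over the 16 libraries were named from 10582 genes outside the 10 that had at least 5 CPM on average. Likeness was the mean absolute difference of log2(CPM + 0.5) after each gene was centred on its own mean, with a median of 1.33 over the genes compared. The closest were Agpat2 at 0.17, Abhd15 (an adipocyte protein of the insulin pathway) at 0.18, Lpl (lipoprotein lipase) at 0.20, Cbs (cystathionine beta-synthase) at 0.20 and Acsl1 (long-chain acyl-CoA synthetase) at 0.21. Lpl had 1926 CPM in KO DIAM, 225 CPM in KO DMEM, 1265 CPM in WT DIAM and 242 CPM in WT DMEM (group means). Within the 10, Acaca was nearest to Fasn at 0.43, then Scd1 at 0.68, Acacb at 0.71, Acss2 at 0.74, Me1 at 0.82, Acly at 1.12, Scd2 at 1.40, Elovl6 at 1.78 and Thrsp at 2.74. The measure is small only where both the direction and the size of the change are alike, so Thrsp, with the largest rise, lies farthest from Fasn.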

How the data were processed

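The authors' deposited table holds 1 value per gene and library, with their own log2 fold changes, p-values and adjusted p-values. Per the submitters' processing notes the tools were Salmon 1.9.0, FastQC, R 4.4.2 and DESeq2 1.46.0, on build GRCm39. Per the labels the library kit was unstranded, so antisense partners cannot be told apart, and ribosomal RNA was depleted. The labels call the deposited values TPM, but the columns sum to 37221192 to 47626331 and are not whole, so they were taken as estimated counts and rounded.

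Genes passing the filter, which hold at least 99.8% of each library's counts, were tested two-sided with edgeR 4.0.16 (R 4.3.3, quasi-likelihood, TMM scaling, robust estimates). A single model covered all groups, leaving 12 residual degrees of freedom, and p-values were adjusted by Benjamini-Hochberg over all genes tested, with a threshold of 0.05. Standard errors are the absolute log2 fold change over the square root of F. The 95% intervals use a t distribution with the 12 residual degrees of freedom, fewer than the edgeR test uses, and are slightly wider than its p-values imply. Elovl6 between genotypes in DIAM thus has an interval that touches 0 beside an unadjusted edgeR p of 0.0451. The script was tested on simulated data.

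The series text speaks of 4 biological replicates and the library protocol of triplicates. Where libraries share a culture, the p-values measure only the spread between libraries. The members and gene lists were chosen with earlier results of these data known. Genes named are the members, the 2 of smallest p with DIAM in each pathway list, Srebf1, Mlxipl, Nr1h3, Insig1, Mid1ip1, Slc25a1 and G6pdx, the gene of smallest p in each comparison list, the 2 most abundant markers of a cell type and the 5 genes most like Fasn. The names in brackets after a count were added after their values were seen. Alternatives were 2 other scalings, 2 other filters, DESeq2 1.42.0, a fit of the compared pair of groups alone, a replicate block, the authors' deposited comparisons and leaving out each library. Sequences and lengths come from GRCm38 tables.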

Additional observations from a re-analysis of the deposited data

Results flagged for a closer look

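In 132 groups of 4 libraries (members, lists and ratios), 5 had a library whose gap to the others exceeded Dixon's critical value for 4 samples, a number that chance alone can give, since it flags about 1 in 20 groups. In WT DIAM, library 2 had a summed smooth muscle marker level of 1172 CPM, the lowest, with the next at 1782 CPM. The same library had the lowest ratio of Acaca to Acacb counts, 26, with the next at 32.1, and the highest ratio of Elovl6 to Fasn counts, 0.0249, with the next at 0.0126. In KO DMEM, library 4 had the highest share of Scd1 in the summed Scd1 and Scd2 counts, 28.9%, with the next at 25.2%, and the lowest ratio of Fasn to Acly counts, 0.854, with the next at 1.01.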

How the results depend on the processing

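All 9 member calls with DIAM in KO cells and all 9 in WT cells were the same under every alternative run. The number of genes higher or lower in KO than in WT cells in DIAM was 1191, against 1873 in DESeq2, 1810 in the authors' deposited table, 0 with only the 2 groups in the fit and 178 to 1470 on leaving out 1 library (275 without KO DIAM 1, 178 without KO DIAM 2, 302 without WT DIAM 1 and 317 without WT DIAM 2). The members called there were 8, against 7 in DESeq2, 8 in the authors' deposited table, 0 with only the 2 groups and 0 to 8 on leaving out 1 library. For KO against WT in DMEM the genes called were 0, against 1 in DESeq2, 2 in the authors' deposited table and 0 to 2 on leaving out 1 library. For the interaction they were 0, against 225 in DESeq2, 234 in the authors' deposited table and 0 to 1 on leaving out 1 library, with 7 of the 10 members in DESeq2 and 7 in the authors' table. The cause of these differences was not tested. The sign changed only for values near 0 that passed no test. For Acly with DIAM in WT cells it was -0.013 with upper-quartile scaling and -0.055 to 0.18 on leaving out 1 library. For Scd2 with DIAM in KO cells it was -0.098 with upper-quartile scaling, -0.013 with a filter at 5 CPM, -0.00135 with the replicate block and -0.033 to 0.058 on leaving out 1 library. For Thrsp between KO and WT in DMEM it was -0.082 to 0.64 on leaving out 1 library. Between DIAM and DMEM of 1 genotype, libraries of the same number had correlated deviations of -0.0836 to 0.31, over 0.1 in 6 of 8 pairs and best with the same number in 5 of 8. Between genotypes they had -0.217 to 0.157, best with the same number in 1 of 8. As not every pair passed 0.1, the main fit did not pair the libraries by number. Whether libraries of the same number and genotype share a culture was not tested. The replicate block used the numbers within each genotype for the media and the interaction. For KO against WT it used the numbers across genotypes. With the replicate block the genes called were 8008, against 7839 without it, for DIAM in WT cells and 1191, as without it, for KO against WT in DIAM, with 8 members, and it changed no member call.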
